A study of Homo sapiens with 8 samples.

Results

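The ERBB receptors and their EGF-like ligands were followed in BEAS-2B, an immortalised human bronchial epithelial cell line, before, during and after exposure to nickel. The family was taken by gene symbol as 4 receptors (EGFR, ERBB2, ERBB3 and ERBB4) and 6 ligands (AREG, EREG, HBEGF, TGFA, BTC and EGF), which make up 10 of the 25411 genes in each library, and every one of them had a row in each of the 8 libraries. RNA-Seq libraries fell into 4 groups with 2 biological replicates each. UT cells received no nickel. Ni-E cells were grown with NiCl2, a nickel salt that dissolves in medium, at 100 µM over 6 weeks. Ni-W cells had this exposure and were then plated at low density without nickel, and the population used came from a single colony, chosen at random, that had been expanded for more than 6 months. HCl3 carries the same exposure and single-cell cloning in its labels, but how long it was kept without nickel and how it relates to Ni-W are not given there. All groups were BEAS-2B cells grown in the same serum-supplemented medium, and the Ni-W libraries come from 1 such population. P values for Ni-W therefore do not cover the spread between washed-out populations, and those for HCl3 cannot be taken to cover it either. Growth without nickel and single-cell cloning go together in Ni-W and HCl3, so that their parts cannot be told apart here. Nor can a difference between HCl3 and Ni-W be told apart from one between single-cell populations. Experiment numbers appear in the labels of Ni-E (2 for both) and of HCl3 (3 and 4) and not in those of UT and Ni-W, so that Ni-E and HCl3 differ in experiment as well as in treatment and the experiment of UT and Ni-W is not given.

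EGF-like ligands are made as membrane-anchored precursors that metalloproteases, chiefly ADAM17 and ADAM10, cut free from the cell surface. AREG, EGF and TGFA bind EGFR, while BTC, EREG and HBEGF can also bind ERBB4. A bound receptor pairs with another family member and activates the Ras-ERK and PI3K-AKT pathways. ERBB2 has no known ligand and serves as the preferred partner, and ERBB3 has a weak kinase and relays its signal through PI3K when a neuregulin binds it. In the airway epithelium these receptors are known for their part in growth, wound closure and mucus production.

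Total counts per library ran from 26383920 to 45692298 reads, so that 3 reads, the least taken as detection, corresponded to 0.0657 to 0.114 CPM (reads scaled to a common library size). Of the epithelial markers, KRT7, KRT8 and KRT18 were high in all 8 libraries (at least 144 RPKM, a read count scaled to transcript length and library depth), EPCAM lay between 0.95 and 1.79, and CDH1 and KRT5, which define many epithelia, were at most 0.11 and 0.03. KRT19 was at most 0.02 RPKM in UT and Ni-E and lay between 0.53 and 0.78 in Ni-W and HCl3. The 7 epithelial markers summed to 636 and 602 RPKM in UT (replicates 1 and 2), 794 and 579 for Ni-E, 972 and 947 for Ni-W and 935 and 996 for HCl3. The 7 fibroblast markers summed to 580 and 514, 325 and 500, 398 and 413, and 641 and 670 in the same order, with COL1A1 and THY1 high and DCN at 0 reads throughout. Of the rest of this list, PDGFRB lay between 10.6 and 27.9 RPKM and COL1A2 between 0.03 and 2.05. COL3A1 and PDGFRA were at most 0.07 and 0.02. Endothelial markers summed to at most 0.06 RPKM, and of the 3 leukocyte markers CD14 alone reached 1 RPKM (1.06 to 4.15). Replicates of Ni-E stood apart from each other in several of these sums and in the transcripts described at the end. Results without 1 of these replicates are also given for TGFA, BTC and those transcripts as a list, but not gene by gene for that list. Fewer cells that make a transcript and less of it per cell cannot be told apart in bulk RNA.

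Per length, ERBB2 was the most abundant receptor in each library and HBEGF the most abundant ligand. In UT, ERBB2 stood at 28.6 ± 0.955 RPKM (mean ± SD, n = 2), HBEGF at 19.4 ± 2.53, EGFR at 7.61 ± 0.184, ERBB3 at 1.65 ± 0.0919 and TGFA at 0.240 in both libraries. These levels lay above those of 88.8, 84.4, 72.4, 59.3 and 49.3% of all listed genes. ERBB4 had 0 reads in each of the 8 libraries, which allows at most the detection limit given above, and AREG, EREG, BTC and EGF stayed below 0.5 RPKM in all of them. Of the summed RPKM of the 6 ligands as listed, HBEGF supplied 98.4 and 98.8% (UT), 95.7 and 97.0% (Ni-E), 90.1 and 92.8% (Ni-W) and 93.0% in both HCl3 libraries. AREG has a near-identical second copy in hg19, AREGB, and reads with several alignments were removed before deposit. The AREG part of these sums, and the rank of HBEGF over AREG, are therefore uncertain. The ratio of HBEGF to TGFA in RPKM, which does not involve AREG, went from 73.4 and 88.3 in UT to between 14.6 and 35.0 in the 6 nickel-treated libraries.

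**Figure D1:**
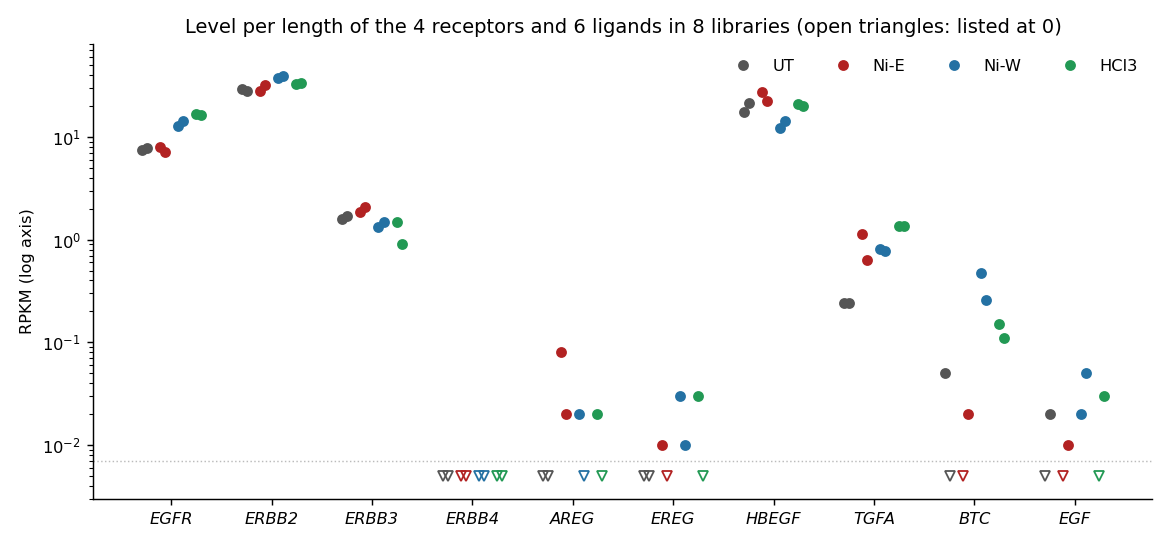
RPKM of the 10 family members (log axis) in the 8 libraries, coloured by group, with open triangles below the dotted line for libraries listed at 0. ERBB2 lies between 27.8 and 39.1 RPKM and HBEGF between 12.2 and 27.5, whereas ERBB4 is at 0 in each library.

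A gene was called differentially expressed when its DESeq2 adjusted P value, taken over all genes tested, was under 0.05 and it changed by at least 1.5-fold. Of the 10 members, 5 passed the filter on low counts in Ni-E against UT and 1 of them, TGFA, was called, where 5.8% of 14478 genes were called in all. In Ni-W against UT 7 members were tested and 4 called (EGFR, TGFA and BTC higher, HBEGF lower), against 15.7% of all genes. HCl3 against UT gave 3 of 7 (EGFR and TGFA higher, ERBB3 lower), against 14.8%. These 3 comparisons share the UT libraries. Directly against Ni-E, Ni-W gave 3 of 8 (EGFR and BTC higher, HBEGF lower; 20.5% of all genes) and HCl3 gave 2 of 9 (EGFR higher, ERBB3 lower; 17.1%). HCl3 differed from Ni-W in 3 of 7 members (TGFA and HBEGF higher, ERBB3 lower; 4.77%). With so few members these shares are descriptions, members called in a comparison had also to pass its filter, and no test of a share was made. DESeq2 borrows the spread between libraries from all genes. A test that only regroups the libraries, 2 against 2, could not give a two-sided P value below 0.333.

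**Figure D2:**
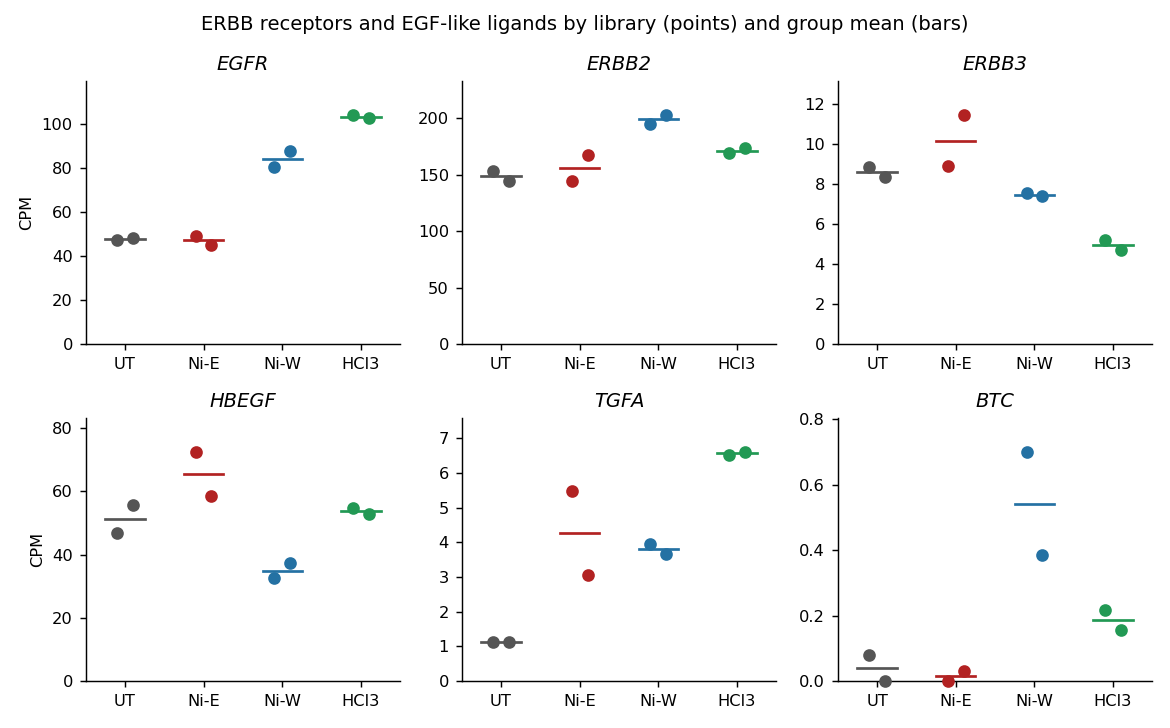
CPM of 6 members in each library (points) and the mean of the 2 libraries of a group (bars), with each vertical axis starting at 0. EGFR is between 45.3 and 49.2 in UT and Ni-E and between 80.6 and 104 in Ni-W and HCl3, TGFA is lowest in UT, and HBEGF is lowest in Ni-W.

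The sequences upstream of 3 of the called genes (EGFR, TGFA and HBEGF) are shown so that their promoters can be compared. RefSeq (GRCh38.p14) lists a promoter for 9 of the 10 members, not for ERBB3, and the first listed start was used. The 250 bases before that start lie at chr7:55018767-55019016 on the plus strand for EGFR, chr2:70553827-70554076 on the minus strand for TGFA and chr5:140346604-140346853 on the minus strand for HBEGF. They are printed 5′ to 3′ along the gene, with capitals for each GC box (GGGCGG on either strand, the binding sequence of Sp1).
EGFR: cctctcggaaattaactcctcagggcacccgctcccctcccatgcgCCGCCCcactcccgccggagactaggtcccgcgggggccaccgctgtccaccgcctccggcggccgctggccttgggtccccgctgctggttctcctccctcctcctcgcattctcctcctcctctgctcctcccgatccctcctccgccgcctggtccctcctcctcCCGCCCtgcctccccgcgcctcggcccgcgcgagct
TGFA: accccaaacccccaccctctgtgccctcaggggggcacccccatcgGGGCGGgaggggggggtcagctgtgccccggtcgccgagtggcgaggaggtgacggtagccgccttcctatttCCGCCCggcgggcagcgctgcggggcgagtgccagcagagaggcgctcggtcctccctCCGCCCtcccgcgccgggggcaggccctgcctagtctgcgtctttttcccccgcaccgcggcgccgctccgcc
HBEGF: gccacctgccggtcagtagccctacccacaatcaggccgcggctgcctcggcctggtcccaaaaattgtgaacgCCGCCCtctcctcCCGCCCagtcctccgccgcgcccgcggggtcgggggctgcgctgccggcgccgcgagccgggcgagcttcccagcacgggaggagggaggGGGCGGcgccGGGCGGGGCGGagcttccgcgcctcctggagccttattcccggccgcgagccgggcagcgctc
G and C made up 73.6% of the bases before EGFR, 75.6% before TGFA and 76.4% before HBEGF. GC boxes numbered 2, 3 and 5, overlapping copies counted separately, and 42.6% of 35116 RefSeq promoters of this length hold at least 1. Neither the AP-1 letters TGANTCA (6.57% of promoters), the hypoxia response core ACGTG or GCGTG (43.2%), the metal response element TGCACNC or TGCGCNC (24.8%) nor TATAAA (10.7%) was found on either strand of these 3 windows. A match or its lack describes these letters alone.

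EGFR, the receptor to which all 6 ligands can bind, was higher than UT in both washed-out groups and was not called in Ni-E. It lies in hg19 on chromosome 7, from 55086725 to 55275031 on the plus strand, and each value covers the exons of 4 listed transcripts. EGFR had 7.48 and 7.74 RPKM (UT), 7.88 and 7.19 (Ni-E), 12.8 and 14.1 (Ni-W) and 16.6 and 16.4 (HCl3). The ranges of UT and Ni-E overlapped, those of Ni-W and HCl3 lay above both, and HCl3 lay above Ni-W. Against UT the log2 fold change was -0.069 ± 0.13 (SE) in Ni-E (adjusted P value 0.831), with a 95% interval of -0.33 to 0.19. It was 0.78 ± 0.12 in Ni-W (1.72-fold, adjusted P value 1.03e-09) and 1.06 ± 0.10 in HCl3 (2.08-fold, 7.81e-23). Directly against Ni-E it was 0.83 ± 0.12 in Ni-W (1.32e-11) and 1.11 ± 0.10 in HCl3 (3.34e-27). HCl3 exceeded Ni-W by 0.28 ± 0.087 (adjusted P value 0.00991), which was below 1.5-fold.

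The log2 fold change of EGFR lay above that of most genes around it in Ni-W and HCl3 and below that of most in Ni-E. Within 5 Mb on each side, 11 other genes had a mean normalised count of at least 50, and their median against UT was 0.17 (Ni-E), 0.33 (Ni-W) and 0.29 (HCl3). EGFR lay above 3 of the 11 in Ni-E, above 10 in Ni-W and above all 11 in HCl3. The antisense gene EGFR-AS1 overlaps EGFR and had 0 to 8 reads per library against 1277 to 3945 for EGFR, and whether strand was used in counting is not stated. The 3 genes whose pattern over the 8 libraries was most like that of EGFR, among 12015 genes, were FAM120C, DKK3 and JAZF1, with root mean square differences of 0.056, 0.067 and 0.082 in centred log2 normalised counts, where the group means of EGFR spanned 1.12. DKK3, for example, had mean levels of 37.7 (UT), 32.8 (Ni-E), 61.3 (Ni-W) and 74.2 RPKM (HCl3). FAM120C, the closest by counts, had 2.165, 2.92, 3.595 and 4.6 RPKM in the same order. Its RPKM was thus already higher in Ni-E than in UT, where that of EGFR was not.

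ERBB2, the partner receptor without a ligand, was not called in any of the 6 comparisons. It lies on chromosome 17 (37856231 to 37884915, plus strand) and had 29.3 and 27.9 RPKM (UT), 27.8 and 32.1 (Ni-E), 37.3 and 39.1 (Ni-W) and 32.4 and 33.3 (HCl3). Ni-W was the highest group, and UT and Ni-E overlapped. The log2 fold change against UT was 0.38 ± 0.10 in Ni-W (adjusted P value 0.00115), below 1.5-fold, 0.15 ± 0.093 in HCl3 (0.231) and 0.011 ± 0.12 in Ni-E (0.973). HCl3 was below Ni-W by a log2 fold change of -0.23 ± 0.075 (adjusted P value 0.0182), again within 1.5-fold. The balance of the 2 receptors was read from their ratio, with no test. The ratio of EGFR to ERBB2 in RPKM was 0.256 and 0.277 (UT), 0.284 and 0.224 (Ni-E), 0.343 and 0.361 (Ni-W) and 0.510 and 0.492 (HCl3). UT and Ni-E overlapped in this ratio, Ni-W lay above them and HCl3 above Ni-W.

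ERBB3, the neuregulin receptor that couples to PI3K, was lower in HCl3. It lies on chromosome 12 (56473892 to 56497291, plus strand) and had 332 and 220 reads (UT), 307 and 388 (Ni-E), 345 and 230 (Ni-W) and 191 and 181 (HCl3). In CPM these were 8.86 and 8.34, 8.87 and 11.4, 7.55 and 7.39, and 5.20 and 4.71, so that HCl3 lay below every other library. Its log2 fold change was -0.85 ± 0.22 in HCl3 against UT (adjusted P value 0.000766, 1.80-fold lower), -1.04 ± 0.22 against Ni-E (1.91e-05) and -0.60 ± 0.21 against Ni-W (0.0275). In Ni-E and Ni-W it was not called against UT, at 0.18 ± 0.22 (0.697) and -0.24 ± 0.21 (0.432). Of 125 neighbouring genes within 5 Mb, 124 had a higher log2 fold change than ERBB3 in HCl3 against UT, and their median was -0.079. The call in HCl3 against UT was lost without HCl3 replicate 1 (-0.91, adjusted P value 0.0806) and without replicate 2 (-0.78, 0.157). That against Ni-W was lost without any 1 of the 4 libraries (-0.67 to -0.54) and under the replicate block (-0.60, adjusted P value 0.220).

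The deposited RPKM of ERBB3 ordered the libraries differently from its counts. HCl3 replicate 1 was listed at 1.47 RPKM and replicate 2 at 0.91, although their counts were 191 and 181. Dividing the CPM by the RPKM gives the transcript length that the RPKM implies, and for ERBB3 this ran from 3536 bases in HCl3 replicate 1 to 5720 in Ni-W replicate 1, a ratio of 1.62. The same ratio was 1.01 for EGFR, 1.02 for ERBB2 and 1.01 for HBEGF, its median over 11086 genes with at least 50 reads in each library was 1.01, and it exceeded 1.3 in 48 of them (0.433%). ERBB3 has 2 listed transcripts, and reads per transcript were not used here. Its comparisons were therefore read from counts, and its RPKM places HCl3 replicate 1 (1.47) among the Ni-W libraries (1.32 and 1.49).

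**Figure D3:**
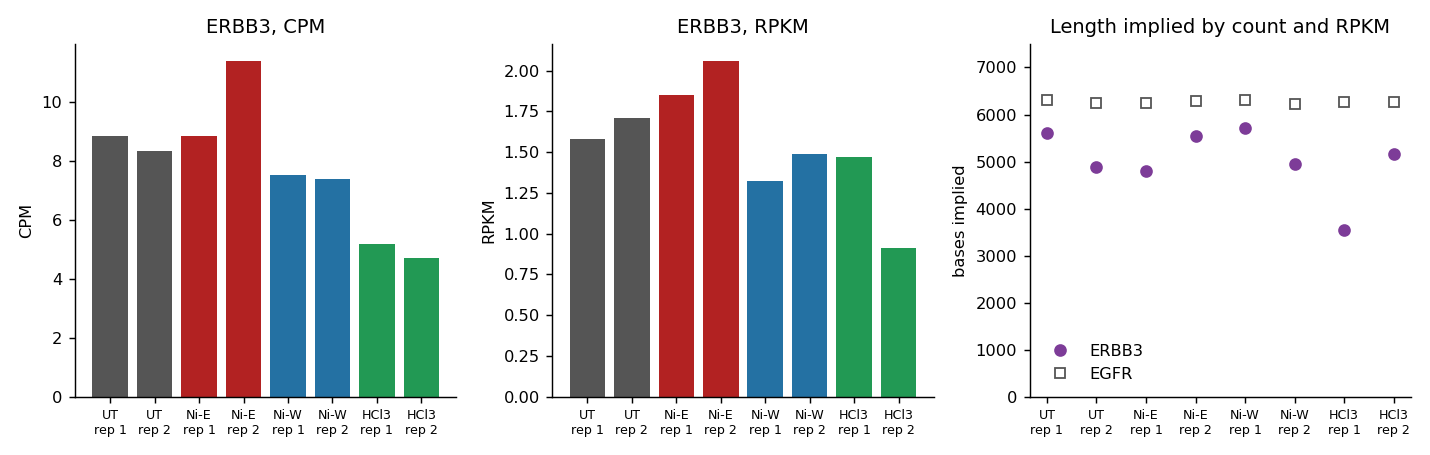
ERBB3 in each library as CPM (left), as RPKM (middle) and as the transcript length in bases implied by their ratio (right), with EGFR shown beside it on the right. Both HCl3 libraries are the lowest in CPM, HCl3 replicate 1 is not in RPKM, and its implied length falls to 3536 bases while EGFR stays between 6231 and 6319.

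TGFA, a ligand of EGFR, was higher than UT in all 3 nickel-treated groups. It lies on chromosome 2 (70674412 to 70781147, minus strand) and had 42 and 30 reads (UT), 190 and 104 (Ni-E), 180 and 114 (Ni-W) and 240 and 254 (HCl3). In CPM these were 1.12 and 1.14, 5.49 and 3.06, 3.94 and 3.66, and 6.53 and 6.60. The nickel-treated libraries all lay above both UT libraries, HCl3 was the highest group, and the Ni-E replicates bracketed Ni-W. Its log2 fold change against UT was 1.88 ± 0.42 in Ni-E (3.67-fold, adjusted P value 0.000255), 1.72 ± 0.37 in Ni-W (3.29-fold, 4.08e-05) and 2.49 ± 0.31 in HCl3 (5.62-fold, 8.09e-14). HCl3 exceeded Ni-W by 0.78 ± 0.23 (adjusted P value 0.00652) and Ni-E by 0.60 ± 0.30 (0.0989). Ni-W and Ni-E differed by -0.17 ± 0.33 (0.735), with a 95% interval of -0.83 to 0.48.

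In Ni-E both libraries lay above UT in TGFA, but the call rested on replicate 1. Without it the log2 fold change against UT was 1.36 with an adjusted P value of 0.391, HCl3 against Ni-E became 1.11 and was called (0.00719), and Ni-W against Ni-E changed sign to 0.34 (0.643). In Ni-W the call against UT was lost without Ni-W replicate 1 (1.68, adjusted P value 0.0771), and the call of HCl3 against Ni-W was lost without any 1 of the 4 libraries (0.74 to 0.82) and under the replicate block (0.78, adjusted P value 0.114). All 75 neighbouring genes within 5 Mb had a lower log2 fold change than TGFA in each comparison with UT, with medians of 0.019 (Ni-E), -0.25 (Ni-W) and -0.18 (HCl3). Most like TGFA over the 8 libraries were DUSP4, which encodes a phosphatase of ERK, LOXL1, which encodes a cross-linker of elastic fibres, and AMIGO2, with root mean square differences of 0.268, 0.270 and 0.271, where the group means of TGFA spanned 2.46. AMIGO2 encodes an adhesion protein and had means of 1.83 (UT), 6.62 (Ni-E), 5.67 (Ni-W) and 7.85 RPKM (HCl3).

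HBEGF, a heparin-binding ligand of EGFR and ERBB4, was lowest in Ni-W. It lies on chromosome 5 (139712428 to 139726188, minus strand) and had 17.6 and 21.2 RPKM (UT), 27.5 and 22.1 (Ni-E), 12.2 and 14.1 (Ni-W) and 20.7 and 20.1 (HCl3). Both Ni-W libraries lay below the rest, HCl3 lay within the range of UT, and Ni-E lay above UT by a margin smaller than the spread of its own replicates. Against UT the log2 fold change was -0.60 ± 0.14 in Ni-W (1.51-fold lower, adjusted P value 0.000229), 0.30 ± 0.15 in Ni-E (0.211) and 0.017 ± 0.12 in HCl3 (0.944, 95% interval -0.22 to 0.26). Ni-W was lower than Ni-E by -0.91 ± 0.14 (adjusted P value 1.66e-09), and HCl3 was higher than Ni-W by 0.62 ± 0.11 (3.86e-07). HCl3 against Ni-E stood at -0.30 ± 0.12 (0.0400), short of 1.5-fold.

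The fall of HBEGF in Ni-W against UT sat at the fold threshold, and the call was lost without UT replicate 2 (-0.46, adjusted P value 0.0358), without Ni-W replicate 1 (-0.49, 0.111) and after correction for GC content and length (-0.57, 0.000324). The call of HCl3 against Ni-W was lost without Ni-W replicate 1 (0.51, 0.00167). Around HBEGF, 79 genes within 5 Mb had a median of 0.054 on the log2 scale when Ni-W was set against UT, and 74 of them lay above HBEGF.

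**Figure D4:**
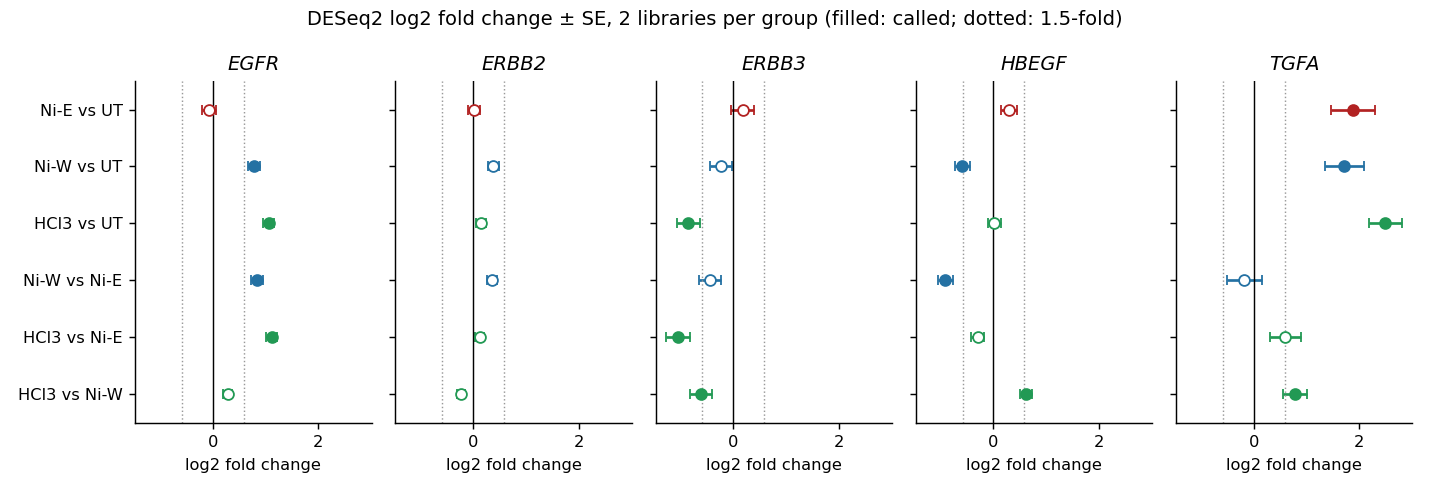
DESeq2 log2 fold change (points) ± SE (bars) of the 5 members with the most reads in the 6 comparisons, with 2 libraries per group, filled points for calls and dotted lines at 1.5-fold. EGFR is higher in the 4 comparisons of Ni-W or HCl3 with UT or Ni-E (0.78 to 1.11), and TGFA is higher in each comparison with UT (1.72 to 2.49).

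BTC, a ligand of EGFR and ERBB4, was called higher in Ni-W than in UT and Ni-E, from few reads. It lies on chromosome 4 (75671448 to 75719882, minus strand) and had 3 and 0 reads (UT), 0 and 1 (Ni-E), 32 and 12 (Ni-W) and 8 and 6 (HCl3). Both Ni-W libraries were the highest, HCl3 came between them and the rest, and UT and Ni-E were at or below the detection limit. Pooled CPM were 12.2 times those of UT in Ni-W, with a 95% interval of 3.91 to 61.4 that covers counting error only, and 39.3 times those of Ni-E (6.69 to 1586). DESeq2 called both differences (adjusted P values 0.0234 and 0.00974). The call against UT was lost without UT replicate 2 (0.170) and without either Ni-W library (0.504 and 0.175). It was also lost under the replicate block (adjusted P value 0.0540) and under the block with GC and length correction (0.0509). The call against Ni-E was lost without Ni-E replicate 1 (0.0824) or Ni-W replicate 2 (0.0668), while without Ni-W replicate 1 it had no adjusted P value. BTC was not called in HCl3 against UT (adjusted P value 0.405) or against Ni-W (0.237), although edgeR called the latter lower (0.0409).

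The remaining ligands were at the edge of detection. EGF, which names the family, had 0 and 2 reads (UT), 0 and 1 (Ni-E), 6 and 8 (Ni-W) and 0 and 6 (HCl3). EREG had 0 and 0, 1 and 0, 6 and 1, and 6 and 0 in the same order. AREG, a major ligand in many airway cells, had 0 and 0, 4 and 1, 1 and 0, and 1 and 0. None was called in a comparison where it was tested. The low counts of AREG are uncertain because of its second copy. AREG, EREG and BTC lie within the same part of chromosome 4, AREG from 75480591 to 75490485 and EREG from 75230860 to 75254477. The 36 genes within 5 Mb of BTC with a mean normalised count of at least 50 had a median of -0.026 on the log2 scale when Ni-W was set against UT.

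Further genes of the pathway were read from 6 lists, with the median over all genes tested between -0.0016 and 0.017 in every comparison. Of all genes tested, 3.75% were called higher and 2.05% lower in Ni-E against UT, 10.9 and 4.83% in Ni-W against UT, and 11.1 and 3.74% in HCl3 against UT. The shares were 11.7 and 8.81% in Ni-W against Ni-E, 10.4 and 6.78% in HCl3 against Ni-E, and 3.1 and 1.66% in HCl3 against Ni-W. Among 5 other EGF-family ligands, EPGN and the neuregulins, 2 were tested in Ni-E against UT and 0 called. In Ni-W and in HCl3 against UT 3 were tested and DESeq2 called NRG2 alone, at 2.50 ± 0.92 and 2.57 ± 0.89, from levels of 0.03 to 0.2 RPKM. Both calls were lost when any 1 library was left out and under the replicate block. NRG1, the most abundant of the 5, ranged from 0.95 to 1.72 RPKM and was lowest in Ni-W. Its log2 fold change in Ni-W against UT was -0.63 ± 0.31 and not called (adjusted P value 0.110), whereas edgeR (0.0224) and DESeq2 with all 8 libraries in 1 fit (0.0459) called it lower.

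Of 8 genes for shedding and ligand processing, ADAM12, a metalloprotease that can release HBEGF, was lower than UT in Ni-E and Ni-W and was not called in HCl3. It had 6.43 and 6.74 RPKM (UT), 3.21 and 2.52 (Ni-E), 3.19 and 3.48 (Ni-W) and 6.99 and 6.76 (HCl3). The log2 fold change against UT was -1.28 ± 0.15 in Ni-E, where it was the only one of the 8 called, and -1.02 ± 0.13 in Ni-W. In Ni-W, 1 gene was higher and 2 lower, namely ADAM10, the sheddase of EGF and BTC, at 0.77 ± 0.11 and TIMP3, the inhibitor of ADAM17, at -1.61 ± 0.13. TIMP3 had 14.5 and 16.6 RPKM (UT), 16.8 and 11.9 (Ni-E), 4.78 and 5.70 (Ni-W) and 16.1 and 16.0 (HCl3), so that Ni-W stood below all other libraries. HCl3 exceeded Ni-W in TIMP3 by 1.60 ± 0.10 and in ADAM12 by 1.03 ± 0.10. In HCl3 against UT 0 of the 8 were called by DESeq2 or by edgeR, and 4 had an unadjusted P value under 0.05 with each tool. ADAM10 was higher there too, at 0.53 ± 0.11 (DESeq2 adjusted P value 1.4e-05), but below 1.5-fold. Against Ni-E, ADAM10 was called higher in Ni-W (1.10 ± 0.090) and in HCl3 (0.86 ± 0.082). In HCl3 against UT, ADAM10 was called higher after GC and length correction (0.65). It passed 1.5-fold without UT replicate 2 (0.65) and without HCl3 replicate 2 (0.59), as RHBDF1 did without UT replicate 1 (0.65). ADAM17, the main sheddase of TGFA and HBEGF, lay between 14.0 and 16.1 RPKM in all 8 libraries.

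Most of the signalling components moved less than 1.5-fold. Of 19 adaptors and members of the Ras-ERK cascade, 0 were called in Ni-E against UT by either tool (6 at an unadjusted P value under 0.05) and 1 was higher in each washed-out group. This was MAP2K1, which encodes the ERK kinase MEK1, at 0.62 ± 0.11 in Ni-W and 0.64 ± 0.098 in HCl3, with list medians of -0.047 and -0.033. The Ni-W call was lost without UT replicate 1, without Ni-W replicate 2 and after GC and length correction. MAP2K2, which encodes MEK2, was lower in Ni-W than in Ni-E by -0.64 ± 0.091, a call lost after GC and length correction. Of the 12 genes of the PI3K-AKT arm, 0 were called in any of the 6 comparisons by DESeq2 or edgeR, and between 1 and 5 of them had an unadjusted P value under 0.05 with either tool. In Ni-W against Ni-E, PIK3R3, a regulatory subunit of PI3K, was called lower after GC and length correction (-0.60, adjusted P value 0.00172).

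Among 21 receptor brakes and trafficking genes, of which 20 were tested, SPRY4, a feedback inhibitor of the Ras-ERK pathway, was higher than UT in each nickel-treated group. It had 0.34 and 0.29 RPKM (UT), 1.05 and 0.49 (Ni-E), 0.67 and 0.84 (Ni-W) and 1.12 and 1.03 (HCl3), with log2 fold changes of 1.25 ± 0.42, 1.23 ± 0.34 and 1.74 ± 0.30. In Ni-E it was the 1 gene called of 20. This call was lost without UT replicate 1, without UT replicate 2 and without Ni-E replicate 1. It was also lost under the replicate block, with or without GC and length correction. Ni-W added SPRY2 (0.63 ± 0.22), giving 2 of 20 higher, near the share over all genes. This count was 0 without either Ni-W library and 1 without either UT library. HCl3, with 3 of 20, added SPRY1 (2.91 ± 0.72) and ERRFI1 (0.60 ± 0.12), which encodes a direct inhibitor of the EGFR kinase, and its count became 2 without UT replicate 1 or HCl3 replicate 2. ERRFI1 had 15.9 and 19.1 RPKM (UT), 19.1 and 14.5 (Ni-E), 16.0 and 17.0 (Ni-W) and 27.6 and 27.2 (HCl3), and HCl3 exceeded Ni-W by 0.72 ± 0.087. Directly against Ni-E, 2 of 20 were higher and 2 lower in Ni-W, and 4 higher and 3 lower in HCl3. After GC and length correction these were 1 and 2, and 3 and 3. CBLB was higher in both (0.75 ± 0.20 and 0.73 ± 0.20), and RNF41 was lower in both (-0.79 ± 0.094 and -0.81 ± 0.083). SPRED2 was also lower in both (-0.92 ± 0.14 and -0.71 ± 0.12), and NF1 was higher in Ni-W (0.66 ± 0.098). The calls of CBLB and NF1 in Ni-W were lost without Ni-W replicate 2 and under the block with GC and length correction.

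The last list held transcripts known to rise when ERK is active. Of 16 such genes, 4 of which are shared with the list of brakes, 7 were higher and 0 lower in Ni-E against UT, with a median log2 fold change of 0.61. They were led by DUSP4 (1.81 ± 0.31), FOS (1.74 ± 0.40), ETV4 (1.67 ± 0.25) and ETV5 (1.46 ± 0.39), of which ETV4 and ETV5 encode ETS transcription factors. Ni-W against UT gave 4 higher and 3 lower with a median of -0.049, led by SPRY4, DUSP4 (1.12 ± 0.27), MYC (-1.21 ± 0.11) and the immediate-early gene EGR1 (-0.81 ± 0.19). HCl3 against UT gave 3 higher and 1 lower with a median of 0.27, namely DUSP4 (2.09 ± 0.21), SPRY4, the cyclin gene CCND1 (0.73 ± 0.14) and MYC (-0.81 ± 0.10). Directly against Ni-E, 9 of the 16 were lower in Ni-W and 7 in HCl3, and 0 were higher in either, with medians of -0.81 and -0.54. HCl3 exceeded Ni-W in 4 of the 16 and was lower in 0. DUSP4 and SPRY4 were thus the transcripts of this list that, like TGFA, were called higher in each comparison with UT. The SPRY4 and TGFA calls in Ni-E were lost without Ni-E replicate 1.

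**Figure D5:**
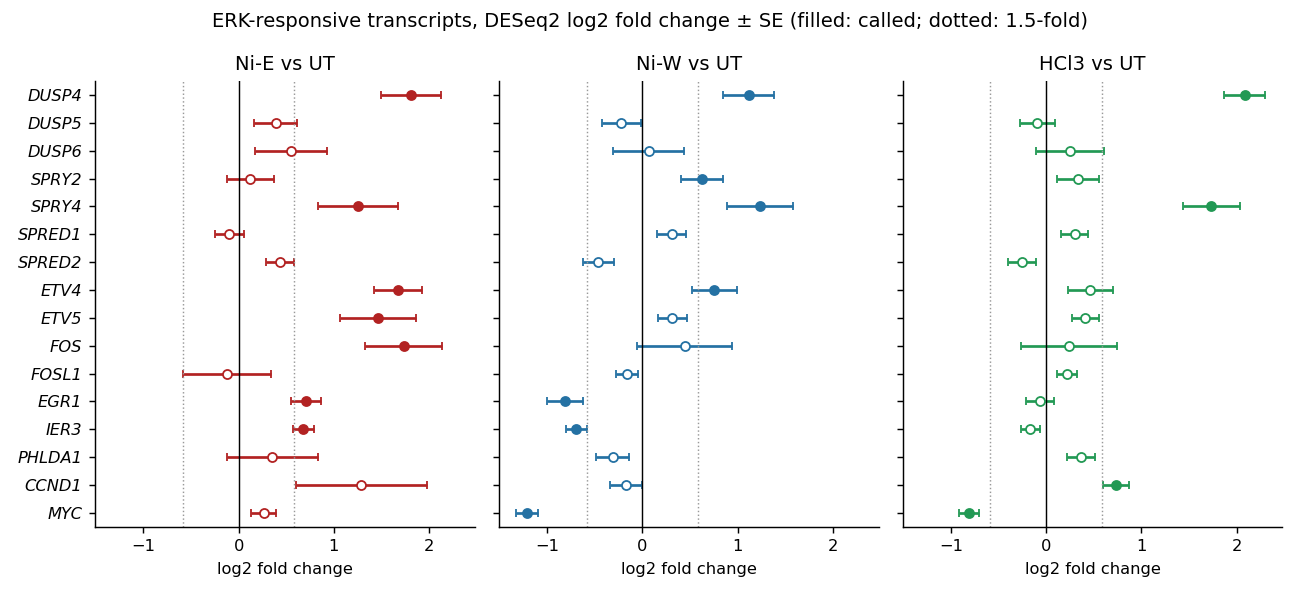
DESeq2 log2 fold change (points) ± SE (bars) of 16 ERK-responsive transcripts in Ni-E, Ni-W and HCl3 against UT, with filled points for calls and dotted lines at 1.5-fold. In Ni-E 7 are called higher and 0 lower, and in Ni-W MYC, EGR1 and IER3 are called lower.

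The count in Ni-E was sensitive to single libraries. It was 3 higher without UT replicate 1 and 4 higher with 1 lower without Ni-E replicate 1, where the median fell from 0.61 to 0.41, and 2 higher with GC and length correction and the replicate block together. In Ni-E, 15 of the 16 transcripts had a higher RPKM in replicate 1 than in replicate 2, as TGFA did (1.14 and 0.63), among them CCND1 (42.0 and 16.2) and ETV5 (24.8 and 15.3). Replicate 1 was below replicate 2 in 14 of 16 in UT and in 15 of 16 in Ni-W. In Ni-W the 4 higher transcripts became 2 without UT replicate 1, 1 without Ni-W replicate 1 and 0 without Ni-W replicate 2, and the median turned to 0.14 without UT replicate 2 and 0.11 without Ni-W replicate 1. In HCl3 the 3 higher became 5 without UT replicate 2 and 2 without UT replicate 1, with medians of 0.43 and 0.16. The Ni-W count against Ni-E went from 9 lower to 5 without Ni-W replicate 1, and HCl3 against Ni-E had 3 higher in place of 0 without Ni-E replicate 1. The medians against Ni-E rested on that library, and without it went from -0.81 to -0.40 in Ni-W and from -0.54 to -0.053 in HCl3. HCl3 against Ni-W went from 4 higher to 2 without Ni-W replicate 1. COL1A1 also differed between the Ni-E replicates, at 178 and 337 RPKM, as did KRT7, at 358 and 207, and the part that this difference has in the values of TGFA was not tested.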

How the data were processed

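RNA-Seq was read from 8 libraries (UT, Ni-E, Ni-W and HCl3, n = 2 each), grouped by their labels. The authors aligned reads with STAR 2.4 to hg19, discarded reads with several alignments and deposited, through BioWardrobe, read counts and RPKM per RefSeq gene. RPKM scale a count by length and depth and were given to 2 decimals. There were no molecular identifiers, so that intervals of count ratios and detection limits cover counting error only.

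Deposited counts were tested in R 4.3.3 with DESeq2 1.42.0 (Wald test, two-sided, with its independent filtering and P values adjusted by Benjamini-Hochberg), each pair of groups in a fit of its 4 libraries. RPKM gave levels without a test. Alternatives were edgeR 4.0.16 (quasi-likelihood test), TMM size factors, all 8 libraries in 1 fit, a mean count of at least 10, no filter, other fold thresholds, the replicate suffix as a block, removal of GC and length trends (longest GENCODE transcript, 86.7% of genes) and each library left out. The crossed block and the readings of the pathway lists under these fits were added after the data were seen. Members and lists were chosen with earlier results of these data known. Named are the members, up to 4 called genes per list and comparison with the largest absolute log2 fold change, and the 3 genes most like the receptor and the ligand whose group means spanned most, among the 5 members with the most reads. ADAM17, NRG1, PIK3R3, IER3 in Ni-W against UT, ADAM10 and RHBDF1 in HCl3 against UT and the marker genes were named after their values were seen. MAP2K1 has a pseudogene copy. The scripts were tested on simulated counts. Chromatin data and other cells of the study were not analysed here. A further result under an alternative is not reported here.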

Additional observations from a re-analysis of the deposited data

Results flagged for a closer look

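The 2 washed-out groups carry the same exposure in their labels and were compared with the same UT libraries. A direct test between them is therefore a test of the difference of their changes from UT. In HCl3 against Ni-W, ERBB3 had a log2 fold change of -0.60, HBEGF of 0.62 and TGFA of 0.78, each past the thresholds. HBEGF was higher in HCl3 in 2 of 2 libraries and kept its call in 12 of 14 alternatives, whereas ERBB3 kept it in 7 of 14 and TGFA in 6 of 14. The labels give experiment numbers for HCl3 and none for Ni-W, so whether these groups come from the same experiment is not given there.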

How the results depend on the processing

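The counts of members called stayed within 1.5 times the reported count in 73 alternatives, fell below it in 13 and rose above it in 1. Leaving out 1 library gave 0 to 1 members in Ni-E against UT, 1 to 4 in Ni-W against UT and 0 to 1 in HCl3 against Ni-W, where a group of 1 library is assumed to vary like the others. A 2-fold threshold gave 2 in Ni-W against UT, 1 in Ni-W against Ni-E and 0 in HCl3 against Ni-W, and no fold threshold gave 5 in the last, by construction. The replicate block gave 1 in HCl3 against Ni-W, and with GC and length correction 1 there and 2 in Ni-W against UT; the cause was not tested. The suffixes share only a number: same-suffix deviations had an r of -0.11, 0.20, -0.16, -0.11, -0.0080 and -0.046 in the 6 comparisons, in the order Ni-E, Ni-W and HCl3 against UT, Ni-W and HCl3 against Ni-E, HCl3 against Ni-W. The block moved the calls over all genes from 840 to 491, 2484 to 2134, 2333 to 1779, 3276 to 2748, 2734 to 2290 and 713 to 455. Crossed pairing, where r was under -0.1, gave 632, 1880 and 2851 in Ni-E and HCl3 against UT and Ni-W against Ni-E. It left the member counts at 1, 3 and 3. Among the 6 comparisons in that order, calls over all genes were 1679, 4918, 4945, 6274, 5994 and 2476 with no fold threshold and 418, 1368, 1308, 1619, 1374 and 369 at 2-fold. With GC and length correction and the block they were 392 in Ni-E against UT and 437 in HCl3 against Ni-W, and leaving out 1 library gave as few as 356, 1516, 1339, 2276, 1757 and 327.

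Reversals concerned values that were not called. In Ni-E against UT, EGFR was 0.069 with GC and length correction, 0.067 with the block added and 0.013 without Ni-E replicate 2 (range over libraries left out -0.15 to 0.013), and ERBB2 was -0.069, -0.071, -0.026 without UT replicate 2 and -0.076 without Ni-E replicate 2 (-0.076 to 0.096). In HCl3 against UT, ERBB2 was -0.012 with GC and length correction, with and without the block, HBEGF was -0.11 without UT replicate 1 and -0.0015 without HCl3 replicate 1 (-0.11 to 0.15), and EGF was -0.015 and -2.96 without UT replicate 1 and HCl3 replicate 2 (-2.96 to 3.95). Against Ni-E, TGFA in Ni-W was 0.34 without Ni-E replicate 1 (-0.56 to 0.34), and in HCl3 EREG was -1.62 (-1.62 to 3.92) and EGF -1.55 (-1.55 to 3.84) without HCl3 replicates 1 and 2. Log2 fold changes correlated with GC content at a Spearman's rho of 0.39 in Ni-E against UT, 0.29 in HCl3 against UT and 0.39 in HCl3 against Ni-W across genes, which are not independent. At these depths BTC, EGF, EREG and AREG rest on at most 32 reads a library.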
